A study of Mus musculus with 4 samples.

Results

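The genes described here are 10 carriers, pumps and channels with which the colon moves salt and water, *Slc26a3*, *Slc26a2*, *Slc9a2*, *Slc9a3*, *Aqp8*, *Scnn1a*, *Scnn1b*, *Scnn1g*, *Atp12a* and *Cftr*. They were chosen by gene symbol, with earlier results of these data known, and 13 probes measured them, of 31366 named probes for 22367 genes on the array. After AOM, *Slc26a3* was 192-fold and *Aqp8* 151-fold higher in the pool labeled *Pla2g3*-/- than in that labeled *Pla2g3*+/+. In that comparison 8 of the 10 genes were over 2-fold higher. These arrays differed broadly, with 15.1% of 17193 genes over 2-fold higher and 12.9% lower. *Slc9a3* was the exception, at 3.44-fold lower. With vehicle, none of the 9 genes with a value differed by 2-fold, beside 1.92% of 16390 genes higher and 1.32% lower.

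Each of 4 arrays was hybridized with pooled colon RNA of 1 group of mice. The groups were *Pla2g3*+/+ (WT) and *Pla2g3*-/- (KO) with saline as vehicle, and the same genotypes with azoxymethane (AOM), an alkylating carcinogen used to raise tumors in the rodent colon. *Pla2g3* encodes the secreted phospholipase A2 of group III. All mice were 42-week-old males of the background B6.129 at backcross generation 3, and the knockout is germline, so that it affects every cell type. AOM (10 mg/kg, intraperitoneal) was given weekly over 6 weeks, and the colons were collected after a further 28 weeks. The labels describe the tissue of the AOM groups as colorectal cancer and that of the vehicle groups as colon, whereas the study's figure legend gives whole descending colon for all. A pool held 3 to 5 mice by the labels and 4 by the study's figure legend, and how tumor and surrounding tissue were divided in the AOM pools is not given in the sources used here. No group had a second array, so that differences between groups could not be tested and the spread between mice is unknown. The arrays labeled *Pla2g3*-/- showed more *Pla2g3* signal than those labeled *Pla2g3*+/+, 1.23-fold with vehicle and 6.01-fold after AOM, by the brightest of 3 probes (chr11:3394109-3394168 of mm9). The *Pla2g3* signal was thus not lower under the knockout label, and all directions below are those of the labels. Whether the probes lie in the deleted part is not given in the sources used here, and outside it they would check nothing.

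The array from the *Pla2g3*+/+ pool with AOM stood apart from the other 3. Summed over 8 smooth muscle genes, its signal was 29.1, against 477 to 525 on the other arrays, in multiples of the 75th percentile of each array. Over 10 crypt stem cell and Wnt target genes the sum was 41.8, against 6.96 to 7.41. The *Pla2g3*-/- vehicle array carried genes of pancreatic acinar cells, 6 of 8 of which were over 2-fold higher than in *Pla2g3*+/+, beside 1.92% of all genes. *Cela1* and *Clps*, the brightest of the 8 by mean log2 signal over the 4 arrays, were not, with log2 ratios of −0.33 and −0.59. On the *Pla2g3*-/- vehicle array itself *Amy2a5* was brighter, at 34.7 against 13.2 and 10.2. All 12 pan-epithelial markers and all 10 markers of surface colonocytes were well above background on all 4 arrays, so that colon epithelium was present in every pool. RNA was taken from whole tissue, and fewer cells of a type and less RNA per cell cannot be told apart. The 75th percentile was 645.6 and 649.8 with vehicle and 1309 and 1169 after AOM, 64.8% to 69.4% of the 43020 spots of an array were well above background, and no spot was saturated.

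The colon absorbs sodium chloride, and water follows by osmosis. At the luminal membrane of surface colonocytes, sodium/hydrogen exchangers work side by side with chloride/bicarbonate exchangers, and in the distal colon the epithelial sodium channel, ENaC, takes up further sodium under the control of aldosterone. A hydrogen/potassium pump recovers potassium, aquaporins let water through, and in the crypts the chloride channel CFTR drives secretion. Loss of the chloride/bicarbonate exchanger *Slc26a3* causes a chloride-losing diarrhea, and its transcript is known as "down-regulated in adenoma".

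The probes were designed as 60 bases each. Some sequences, or parts of them, are shown, since the signals below rest on them, and each runs 5′ to 3′ on the plus strand of mm9. For *Slc26a3*, whose 2 probes are set against each other below, the first 30 bases of the brighter (chr12:32137633-32137692) and the first 21 of the other (chr12:32158340-32158399) are given. Capitals in the latter mark the stop codon, which follows the tail with which the exchanger binds PDZ scaffold proteins. For *Aqp8* the sequence is that of the dimmer probe (chr7:130606210-130606269), whose signal was lost after AOM in *Pla2g3*+/+. For *Slc9a3* it is that of the dimmer probe (chr13:74300566-74301172), whose 60 bases span 607 genomic bases and therefore cross at least 1 splice junction. The *Atp12a* probe (chr14:57005794-57006021) spans 228 genomic bases likewise. The *Cftr* probe (chr6:18270974-18271033) ends on the stop codon of the reading frame, in capitals, again behind a PDZ-binding tail.
*Aqp8*, dimmer probe: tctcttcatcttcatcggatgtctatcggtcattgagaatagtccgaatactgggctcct
*Slc26a3*, brighter probe: agcatgggtttctcttcatcggaatttacc
*Slc26a3*, other probe: ccagttgaaacgaaattcTAA
*Slc9a3*, dimmer probe: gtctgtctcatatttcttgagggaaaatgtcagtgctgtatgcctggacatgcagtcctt
*Atp12a*: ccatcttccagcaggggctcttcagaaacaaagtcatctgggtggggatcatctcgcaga
*Cftr*: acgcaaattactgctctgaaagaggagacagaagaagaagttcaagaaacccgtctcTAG

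Signals are given as scaled signal, the processed intensity of a probe in multiples of the array's 75th percentile, and the order in each list is *Pla2g3*+/+ vehicle, *Pla2g3*-/- vehicle, *Pla2g3*+/+ AOM and *Pla2g3*-/- AOM. A scaled signal depends on the probe as well as on the transcript, so that levels were compared between arrays and not between genes. The error is that of the error model of Feature Extraction, the program that read the arrays, which sets it near 10% of a bright signal. For a log2 ratio this came to 0.20 to 0.22 for every member well above background on both arrays by its brightest probe, and it covers the array only, not the mice. Each gene is its brightest probe unless stated. A gene not well above background on 1 of the arrays compared has only a bound ("at least"), and no ratio is given where both were below it.

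**Figure D1:**
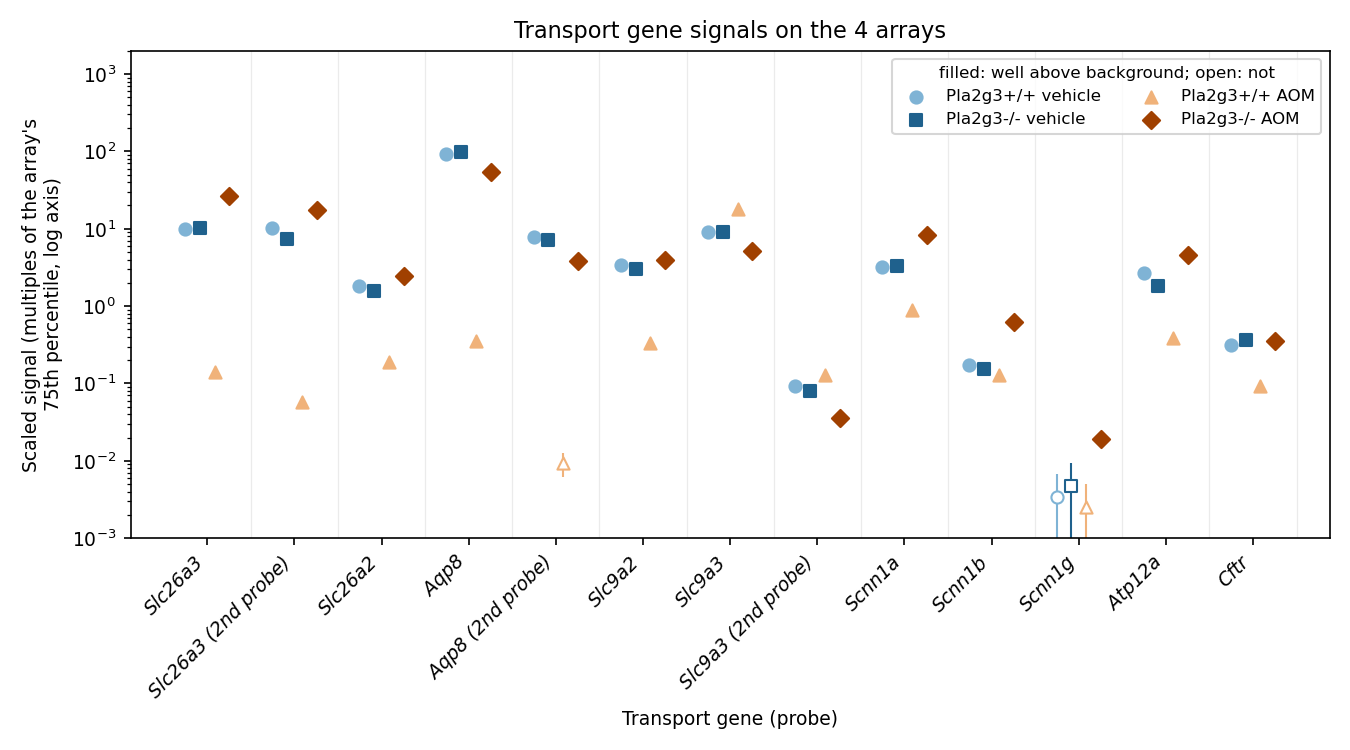
Scaled signal of the 13 probes of the 10 transport genes on the 4 arrays, in multiples of the 75th percentile of the array on a log axis. Bars are the error of Feature Extraction, mostly within the symbols, and open symbols were not well above background. The *Pla2g3*+/+ AOM array (light triangles) is the lowest of the 4 for every probe but those of *Slc9a3*, where it is the highest, and *Scnn1g*, where 3 arrays are at background.

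*Slc26a3*, the chloride/bicarbonate exchanger of surface colonocytes, had scaled signals of 9.97 ± 0.997, 10.2 ± 1.02, 0.14 ± 0.0143 and 26.8 ± 2.68. The vehicle arrays were alike, the *Pla2g3*+/+ AOM array was far below them and the *Pla2g3*-/- AOM array was above them. After AOM the gene was thus 71.4-fold lower than with vehicle in *Pla2g3*+/+ and 2.63-fold higher in *Pla2g3*-/-. Its log2 ratio between the AOM arrays, 7.59, was the 4th highest of 17193 genes with a value. The other probe, near the end of the reading frame, gave 10.1, 7.38, 0.058 and 17.3, or 299-fold between the AOM arrays. By both probes the vehicle arrays lay between the AOM arrays.

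*Slc26a2*, a sulfate transporter of the same family, had scaled signals of 1.83, 1.57, 0.192 and 2.48. It had the same lowest and highest array as *Slc26a3*, over a smaller range. Between the AOM arrays it was 12.9-fold higher in *Pla2g3*-/-, and in *Pla2g3*+/+ it was 9.56-fold lower after AOM than with vehicle. In *Pla2g3*-/- the AOM array was 1.58-fold above the vehicle array, within 2-fold.

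*Aqp8*, a water channel that also passes hydrogen peroxide, had scaled signals of 93.4 ± 9.34, 99.4 ± 9.94, 0.358 ± 0.0359 and 54.1 ± 5.41 by its brighter probe (chr7:130611453-130611512). The signal was thus high on 3 arrays and low on that from *Pla2g3*+/+ with AOM. Relative to vehicle, it was 261-fold lower after AOM in *Pla2g3*+/+, the 8th lowest log2 ratio of 17274 genes, and 1.84-fold lower in *Pla2g3*-/-. The 151-fold difference between the AOM arrays ranked 6th highest of 17193. The dimmer probe gave 7.88, 7.20, 0.00934 and 3.87, of which the third was not well above background. By this probe *Aqp8* was at least 308-fold higher in *Pla2g3*-/- than in *Pla2g3*+/+ after AOM, and at least 627-fold lower after AOM than with vehicle in *Pla2g3*+/+. No pixel of the bright probe was saturated on any array. Unlike *Slc26a3*, *Aqp8* lay below both vehicle arrays on the *Pla2g3*-/- AOM array by either probe, with ratios of 0.544 and 0.537 to *Pla2g3*-/- vehicle. This drop rests on the scaling. By the brighter probe its log2 ratio was −0.88, but −0.03 without scaling between arrays and −0.09 with quantile normalization.

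The sodium/hydrogen exchangers went opposite ways after AOM. *Slc9a2*, which encodes NHE2 (probe at chr1:40825584-40825643), had scaled signals of 3.43, 3.01, 0.337 and 3.97, lowest on the *Pla2g3*+/+ AOM array. It was 10.2-fold lower after AOM than with vehicle in *Pla2g3*+/+ and 11.8-fold higher in *Pla2g3*-/- than in *Pla2g3*+/+ after AOM.

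*Slc9a3*, which encodes NHE3, had scaled signals of 9.21 ± 0.921, 9.15 ± 0.915, 17.9 ± 1.79 and 5.21 ± 0.521 by its brighter probe (chr13:74306830-74306889), designed on a full-length colon cDNA. Here the *Pla2g3*+/+ AOM array was the highest and the *Pla2g3*-/- AOM array the lowest. The dimmer probe, designed on the RefSeq transcript, gave 0.0928, 0.0793, 0.127 and 0.0362, in the same order after AOM. Between the AOM arrays *Slc9a3* was 3.44-fold lower in *Pla2g3*-/- by the brighter and 3.50-fold lower by the dimmer probe. Relative to vehicle, the brighter probe was 1.95-fold higher after AOM in *Pla2g3*+/+, just within 2-fold, and 1.76-fold lower in *Pla2g3*-/-, a direction lost without scaling between arrays, where its log2 ratio was 0.03. The former passed 2-fold in 4 of 10 alternatives, with a log2 ratio of 1.53 under quantile normalization and 1.98 without scaling in place of 0.96.

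ENaC is built of 3 subunits, of which the alpha subunit is needed for a channel and the beta and gamma subunits raise its current. *Scnn1a*, the alpha subunit (chr6:125294843-125294902), had scaled signals of 3.23, 3.27, 0.886 and 8.36. The vehicle arrays were alike, with the *Pla2g3*+/+ AOM array 3.65-fold below its vehicle array and the *Pla2g3*-/- AOM array 2.56-fold above its own. Between the AOM arrays the difference was 9.43-fold.

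*Scnn1b*, the beta subunit (chr7:129061584-129061643), had scaled signals of 0.171, 0.155, 0.129 and 0.615, and only the *Pla2g3*-/- AOM array stood out. It was 3.97-fold above *Pla2g3*-/- vehicle and 4.76-fold above *Pla2g3*+/+ AOM. In *Pla2g3*+/+ the log2 ratio of AOM over vehicle was −0.40, within 2-fold, and turned to 0.62 without scaling between arrays. *Scnn1g*, the gamma subunit (chr7:128911932-128911991), was well above background on the *Pla2g3*-/- AOM array alone, with 0.0189 against 0.0034, 0.00466 and 0.00254 on the others. It was therefore at least 1.5-fold higher in *Pla2g3*-/- than in *Pla2g3*+/+ after AOM and had no ratio in the other comparisons.

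*Atp12a*, the catalytic subunit of the colonic hydrogen/potassium pump, had scaled signals of 2.69, 1.81, 0.385 and 4.53. Its log2 ratio of −0.57 between the vehicle arrays was the largest of any member in that comparison, and still within 2-fold. After AOM it was 6.99-fold lower than with vehicle in *Pla2g3*+/+ and 2.51-fold higher in *Pla2g3*-/-, which left it 11.8-fold higher in *Pla2g3*-/- than in *Pla2g3*+/+.

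*Cftr*, the chloride channel of secretion, had scaled signals of 0.314, 0.364, 0.092 and 0.357. The *Pla2g3*+/+ AOM array was low and the other 3 arrays were within 1.16-fold of each other. *Cftr* was 3.42-fold lower after AOM than with vehicle in *Pla2g3*+/+ and 3.88-fold higher in *Pla2g3*-/- than in *Pla2g3*+/+ after AOM. This was the smallest difference between the AOM arrays among the 8 members over 2-fold higher there.

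**Figure D2:**
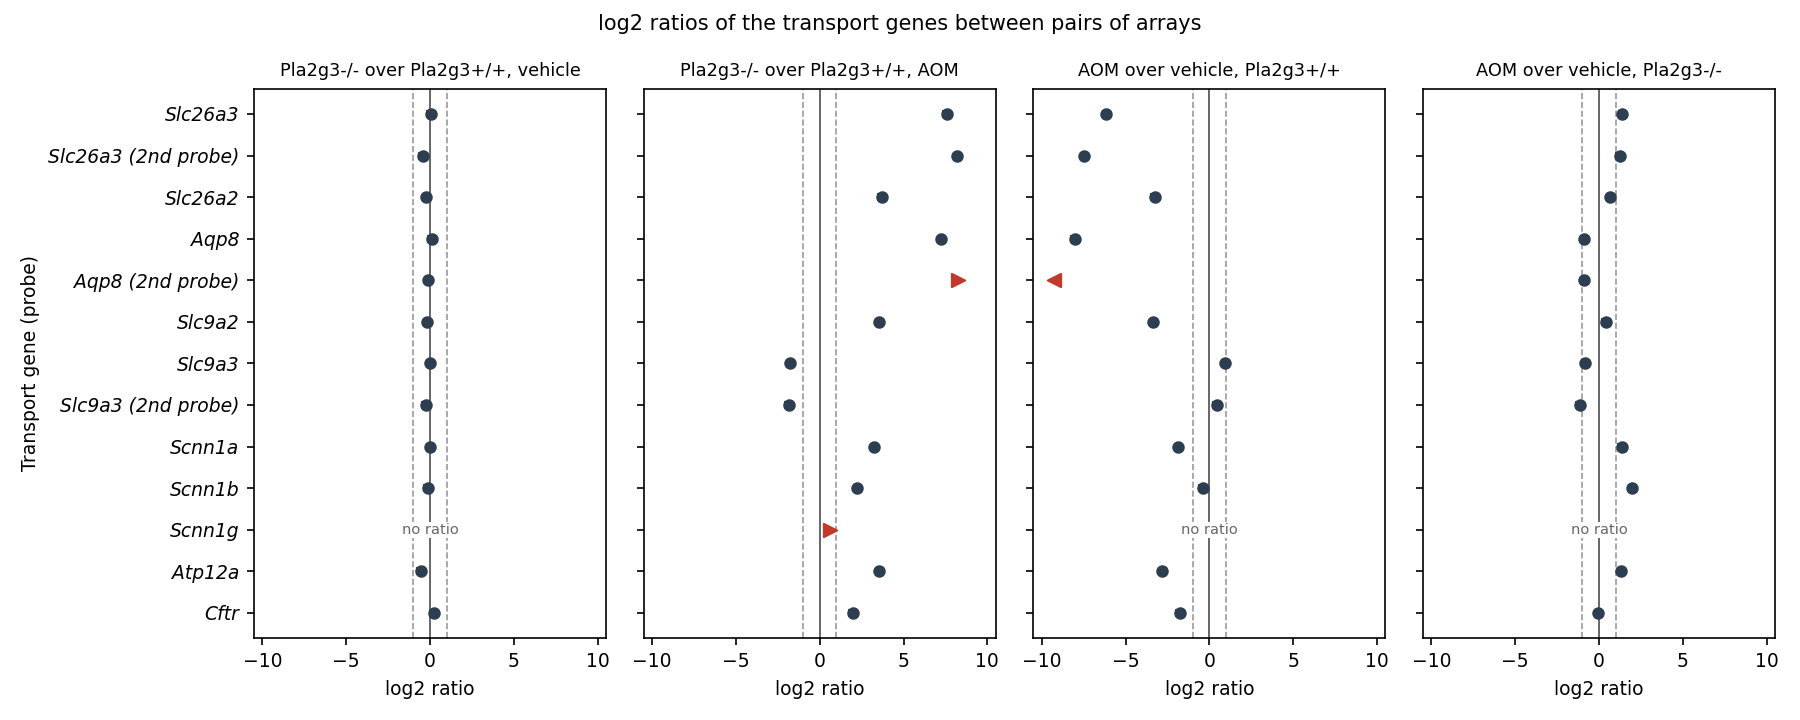
log2 ratio of each probe of the 10 transport genes between 2 arrays in 4 comparisons. Points carry the error of Feature Extraction, mostly within the symbol, red arrowheads are bounds, and dashed lines mark 2-fold. All ratios with vehicle lie within 2-fold, and after AOM all but those of *Slc9a3* lie to the right of 0.

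Counted over the members, the comparison of genotypes with vehicle gave 0 genes over 2-fold higher and 0 over 2-fold lower of 9, beside 1.92% and 1.32% of 16390 genes. The median log2 ratio was −0.01, beside −0.02 over all genes. After AOM, 8 of 10 members were over 2-fold higher and 1 was lower in *Pla2g3*-/-, beside 15.1% and 12.9% of 17193 genes, with a median log2 ratio of 3.40 beside 0.03.

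Relative to vehicle, 7 of 9 members were over 2-fold lower and 0 were higher after AOM in *Pla2g3*+/+, beside 22.4% lower and 15.1% higher of 17274 genes. The median log2 ratio of the members was −2.80, beside −0.17 over all genes. In *Pla2g3*-/-, 4 of 9 were higher, namely *Slc26a3*, *Scnn1a*, *Scnn1b* and *Atp12a*, and 0 were lower, beside 9.65% higher and 15.1% lower of 16513 genes. Here the median was 0.66, beside −0.08. The AOM arrays serve both the comparison of genotypes and that with vehicle, so that these counts are not independent of each other.

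The scaling of the arrays bears on these shares. Without scaling, 45.1% of all genes were over 2-fold higher and 7.17% lower after AOM than with vehicle in *Pla2g3*+/+, and 38.1% and 3.73% in *Pla2g3*-/-. With each array scaled by the median of the 12 pan-epithelial genes, 4.78% were higher and 61.1% lower in *Pla2g3*-/- than in *Pla2g3*+/+ after AOM. The log2 medians used were 3.93 for *Pla2g3*+/+ and 5.14 for *Pla2g3*-/- after AOM. They lie further apart than the median log2 ratio of the same 12 genes, 0.69. This scaling therefore lowers *Pla2g3*-/- by more than the usual ratio of these genes, and its counts are not matched for epithelium. On that scale 7 members were higher and 1 lower in that comparison, with a median log2 ratio of 2.35 beside −1.19 over all genes. *Cftr* then fell short of 2-fold, with a log2 ratio of 0.74, whereas *Slc26a3* was at 6.38 and *Aqp8* at 6.03. In *Pla2g3*+/+, that scaling gave 40.2% of genes higher and 8.16% lower after AOM than with vehicle, and 5 members lower in place of 7. In *Pla2g3*-/- it gave 6.39% higher and 21.6% lower.

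**Figure D3:**
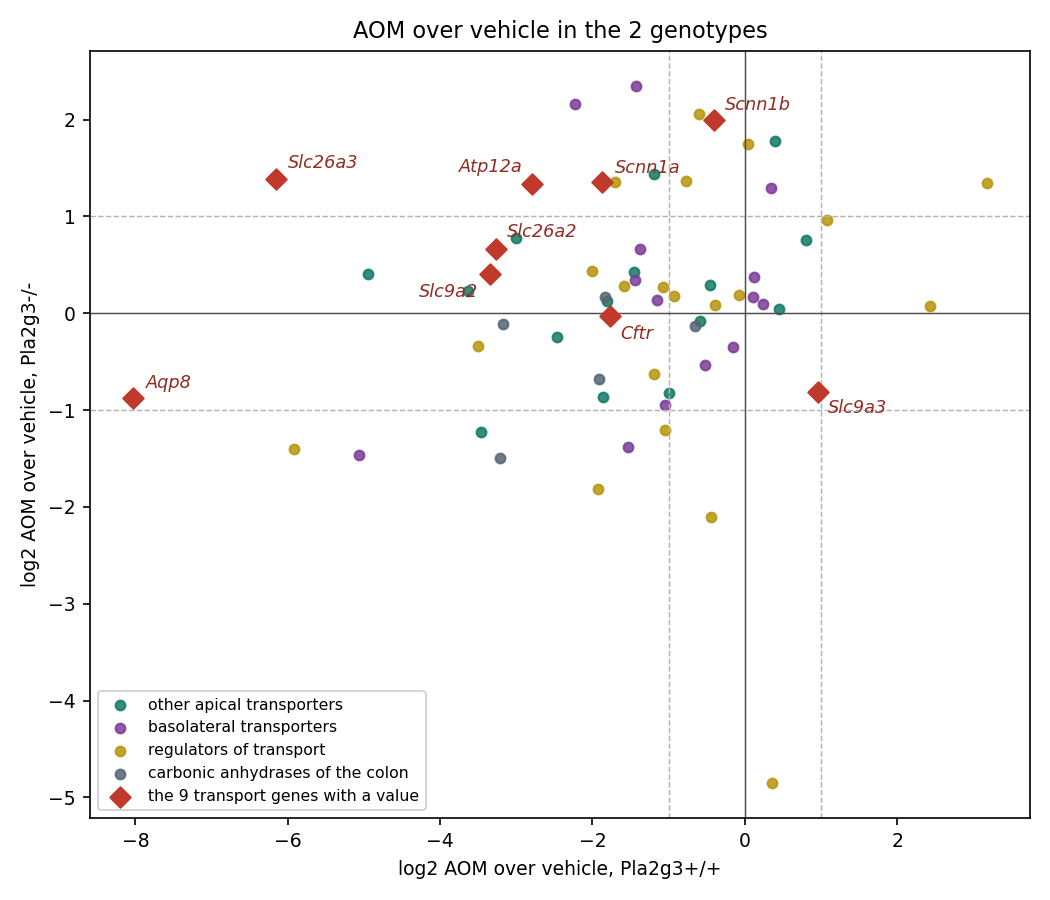
log2 ratio of AOM over vehicle in *Pla2g3*+/+ (horizontal axis) and in *Pla2g3*-/- (vertical axis) for the 9 transport genes with a value (diamonds) and the 54 genes of 4 lists of other transport genes and their regulators (circles). The axes share no array, and dashed lines mark 2-fold. *Slc26a3*, *Scnn1a* and *Atp12a* lie in the upper left, over 2-fold lower in *Pla2g3*+/+ and over 2-fold higher in *Pla2g3*-/-.

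Beyond the members, 54 genes of ion and water transport were taken as 4 lists. With vehicle, 0 of the 53 genes with a value differed by 2-fold, and after AOM 30 of 54 were over 2-fold higher and 4 lower in *Pla2g3*-/- than in *Pla2g3*+/+, with a median log2 ratio of 1.25. In *Pla2g3*+/+, 30 were lower and 3 higher after AOM than with vehicle, and in *Pla2g3*-/- 9 were lower and 10 higher. Without scaling between arrays these counts became 11 lower and 12 higher in *Pla2g3*+/+, and 2 lower and 27 higher in *Pla2g3*-/-. With pan-epithelial scaling, 14 of the 54 were higher and 16 lower between the AOM arrays. The shares over all genes are those given above. Of 21 genes past 4-fold in some comparison, the 12 with the largest ratio in either direction between the AOM arrays are named here.

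Of 15 genes listed as other luminal transporters, 10 were over 2-fold higher and 0 lower in *Pla2g3*-/- than in *Pla2g3*+/+ after AOM. These counts became 5 and 3 with pan-epithelial scaling. The lists were set by gene name, and neither the membrane nor the cell type behind a signal was measured. *Slc5a8*, a sodium-coupled carrier of short-chain fatty acids, had scaled signals of 1.94, 1.87, 0.0625 and 2.47, a difference of 39.5-fold between the AOM arrays. *Best2*, a bicarbonate and chloride channel of goblet cells, had 3.96, 5.37, 0.491 and 9.24, or 18.8-fold. *Kcnma1*, a potassium channel with a part in colonic potassium secretion, was 11.4-fold higher, with log2 ratios of 3.09 and of at least 1.85 for its other probes. The part of non-epithelial cells in its signal was not tested. The sodium/glucose carrier *Slc5a1* was 6.12-fold higher.

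Of 14 genes listed as basolateral, 6 were over 2-fold higher and 0 lower in the same comparison, with a median log2 ratio of 0.53. With pan-epithelial scaling 4 were higher and 6 lower, with a median of −0.68, beside −1.19 over all genes on that scale. The sodium/bicarbonate cotransporter *Slc4a4* had scaled signals of 0.553, 0.413, 0.118 and 1.85, a 15.6-fold difference between the AOM arrays. The water channel *Aqp4* had 7.44, 7.03, 0.223 and 2.55, or 11.4-fold. *Aqp3*, which passes water and glycerol, had 0.0475, 0.0379, 0.0176 and 0.193, or 11.0-fold. The *Pla2g3*+/+ AOM array was thus the lowest for all 3, but *Aqp4* was 2.75-fold lower and *Aqp3* 5.09-fold higher after AOM than with vehicle in *Pla2g3*-/-.

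Among 20 regulators, 10 were over 2-fold higher and 4 lower between the AOM arrays, and the median log2 ratio was 0.93, or −0.28 with pan-epithelial scaling (4 higher and 7 lower), again beside −1.19 over all genes. *Nr3c2*, the mineralocorticoid receptor through which aldosterone raises ENaC, had scaled signals of 0.471, 0.406, 0.145 and 1.04, a 7.15-fold difference. *Hsd11b2*, which protects that receptor from glucocorticoids, had 0.789, 0.642, 0.0695 and 0.508, or 7.30-fold. *Guca2a*, the hormone guanylin, which acts on the guanylate cyclase C of colonocytes, had 294, 279, 4.84 and 106, or 21.8-fold.

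The kinase *Prkg2*, which acts downstream of guanylate cyclase C and inhibits NHE3, had 1.37, 0.95, 1.75 and 0.033. It was 53.1-fold lower in *Pla2g3*-/- than in *Pla2g3*+/+ after AOM, and 28.8-fold lower after AOM than with vehicle in *Pla2g3*-/-. The other 3 lower regulators, named after their values were seen, were *Pdzk1*, a PDZ scaffold of NHE3, with a log2 ratio of −2.14, the lysophosphatidic acid receptor *Lpar2* with −1.91 and the sodium pump modulator *Fxyd3* with −1.78. These 4 genes were picked for being lower, so that a direction shared with *Slc9a3* is no result about the regulators. In the same list, *Slc9a3r1* was at 1.93, *Sgk1* at 1.82 and *Slc9a3r2* at −0.07.

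Carbonic anhydrases supply the protons and bicarbonate that the exchangers carry, and 4 of 5 were over 2-fold higher and 0 lower in *Pla2g3*-/- than in *Pla2g3*+/+ after AOM, with a median log2 ratio of 1.87, or 0.66 with pan-epithelial scaling (1 higher and 0 lower). *Car4*, at the luminal membrane, had scaled signals of 24.9, 20.9, 2.78 and 19.3, a log2 ratio of 2.80 between the AOM arrays, whereas its dimmer probe gave 7.99.

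**Figure D4:**
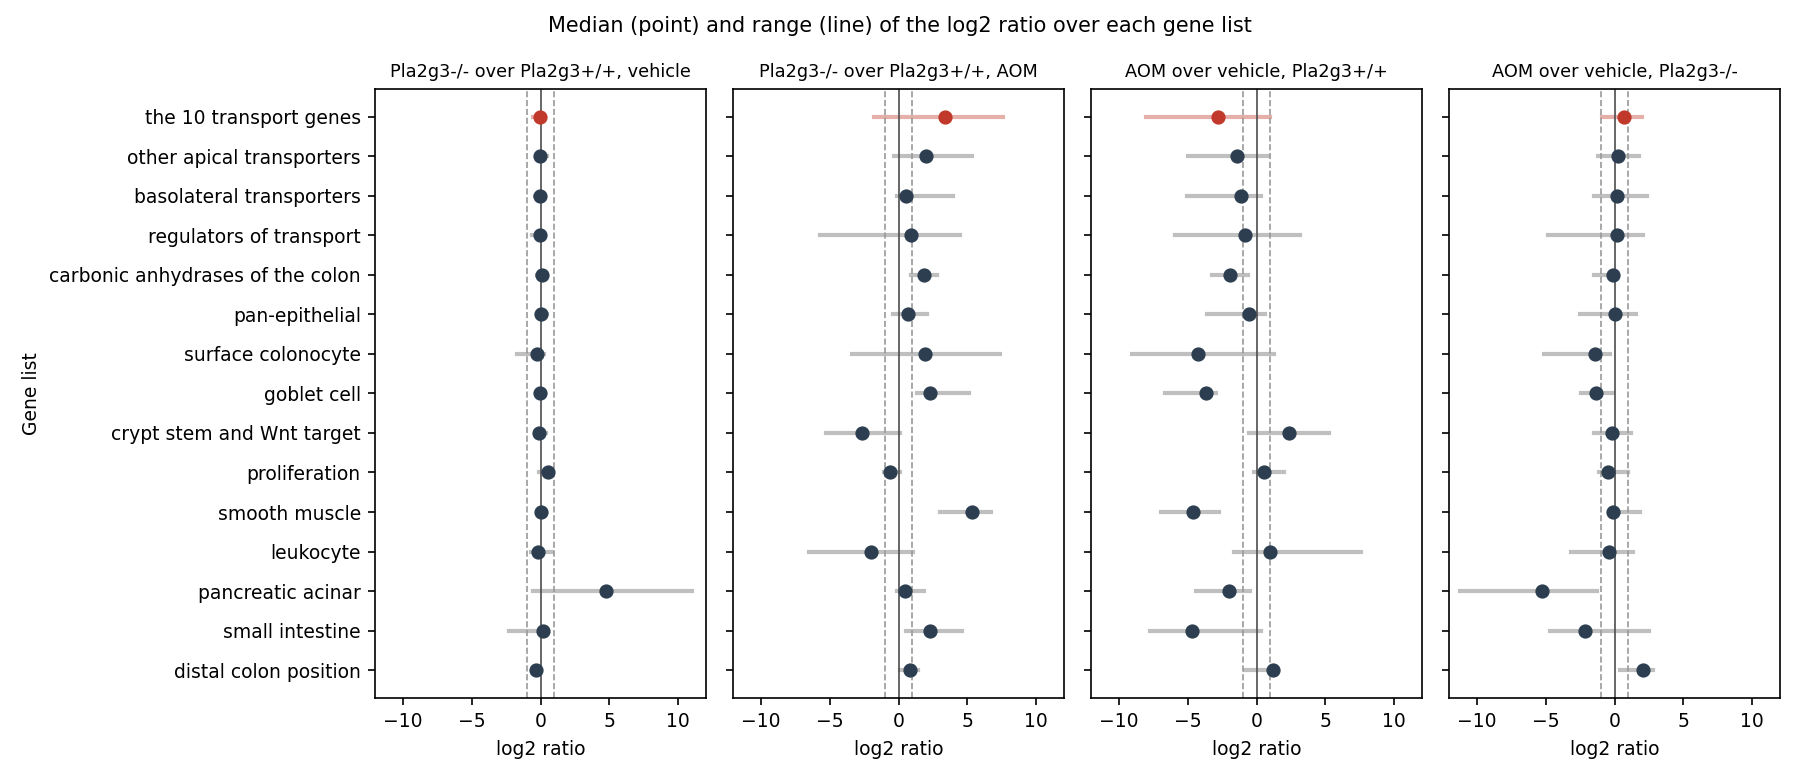
Median (point) and range (line) of the log2 ratio over the genes of each list in 4 comparisons, with the 10 transport genes in red and dashed lines at 2-fold. After AOM, the transport genes, goblet cell and smooth muscle genes lie to the right between the genotypes and to the left for AOM over vehicle in *Pla2g3*+/+, and the crypt stem cell and Wnt target genes lie the other way.

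Markers of cell types moved with the members. Between the AOM arrays, 7 of 10 genes of surface colonocytes were over 2-fold higher in *Pla2g3*-/- and 1 was lower, beside 15.1% and 12.9% of all genes. Their summed signals were 484, 436, 59.9 and 210. *Krt20*, a keratin of surface cells, was at 93.2, 107, 22.5 and 82.3, and *Saa1* at 178, 132, 12.8 and 51.6. With pan-epithelial scaling, 4 were higher and 2 lower, beside 4.78% and 61.1% of all genes. All 8 goblet cell genes were higher as well, or 4 of them with that scaling, with sums of 1527, 1505, 110 and 553, led by *Zg16* and *Tff3*. The pan-epithelial list changed less, with 2 of 12 genes higher and 0 lower, the former near the share of all genes. Its median log2 ratio was 0.69, and its sums were 898, 899, 501 and 769. *Lgals4* and *Krt8*, its brightest genes, had log2 ratios of 0.87 and 0.66.

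Among other tissue components, all 8 smooth muscle genes were over 2-fold higher in *Pla2g3*-/- than in *Pla2g3*+/+ after AOM, with a median log2 ratio of 5.30. *Tagln* and *Acta2*, the brightest by mean log2 signal over the 4 arrays, were below that median, at 3.77 and 3.02. *Lmod1* was not well above background on the *Pla2g3*+/+ AOM array. Of 10 crypt stem cell and Wnt target genes 8 were lower and 0 higher, with a median of −2.63, among them *Notum* and *Ascl2*, and *Prox1* was well above background on the *Pla2g3*+/+ AOM array alone. Of 10 leukocyte genes 8 were lower and 1 higher, with sums of 28.8, 26.2, 69.1 and 19.7, where *Itgam* had a log2 ratio of 1.08 and *Csf1r* of −1.11. Of 8 proliferation genes, led by *Birc5* and *Pcna*, 1 was lower and 0 higher. Over all genes 12.9% were lower and 15.1% higher, so that the lower count is near the usual share. The part of these tissue components in the differences of the transport genes was not tested.

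On both AOM arrays, surface and position markers differed from those with vehicle. In *Pla2g3*+/+, 9 of 10 surface colonocyte genes were over 2-fold lower and 1 higher, beside 22.4% and 15.1% of all genes. Their median log2 ratio was −4.23. On the *Pla2g3*-/- AOM array the members did not fall together. Of the surface colonocyte genes, 7 of 10 were over 2-fold lower and 0 higher than on the *Pla2g3*-/- vehicle array, with a median log2 ratio of −1.40, beside 0.66 for the members. Without scaling between arrays, 3 of the 10 were lower with a median of −0.56, beside 1.38 for the members and 0.76 over all genes, and with quantile normalization 4 were lower with a median of −0.76. For 5 Hox genes that mark the distal colon the median was 2.09, with 3 over 2-fold higher and 0 lower, beside 9.65% and 15.1% of all genes. Without scaling all 5 were higher, but so were 38.1% of all genes, whose median moved to 0.76. *Hoxb13* was at 44.0, 39.2, 24.4 and 63.3, and *Hoxd13* at 1.5, 1.01, 3.90 and 6.88. In *Pla2g3*+/+ the Hox genes had a median of 1.17 for AOM over vehicle, with 3 over 2-fold higher and 0 lower, beside 15.1% and 22.4% of all genes. *Scnn1a*, *Scnn1b* and *Atp12a*, known as genes of the distal colon, were over 2-fold higher after AOM in *Pla2g3*-/-, with log2 ratios of 1.36, 1.99 and 1.33. In *Pla2g3*+/+ their log2 ratios were −1.87, −0.40 and −2.80. They were not set as a list beforehand. *Slc26a3*, not named for position, was at 1.39 in *Pla2g3*-/-, and *Scnn1g* had no ratio there, so that the rise was not particular to the genes named as distal. The part of position along the colon in these values was not tested.

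With vehicle, the 8 pancreatic acinar genes had a median log2 ratio of 4.77. *Cela1* and *Clps*, the brightest of them by mean over the 4 arrays, were at −0.33 and −0.59. Of 7 small intestine genes, led by *Fabp2* and *Slc10a2*, 4 had a value, of which 1 was lower and 0 higher, beside 1.32% and 1.92% of all genes. No member passed 2-fold there, and the acinar genes were not set against the members further.

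Genes with the most similar pattern were sought among 14787 genes well above background on all 4 arrays, by the Euclidean distance between log2 values after each gene was centered on its mean. With 4 arrays, this is a description only. For *Slc26a3* the nearest were *Inmt*, *Shisal1* and *Synpo2*, at distances of 0.78, 1.09 and 1.09. For *Aqp8* they were *Cyp2c55*, *Des* and *Btnl1*, at 0.85, 0.99 and 1.04. *Synpo2* and *Des* belong to the smooth muscle list used here and *Cyp2c55* to that of surface colonocytes. For *Cftr* the nearest were *Csrp1*, *Me2* and the phosphate carrier *Slc20a1*, at 0.08, 0.12 and 0.14.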

How the data were processed

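Colon RNA of 4 pools (27.7 ng each) was labeled with Cy3 and hybridized to Whole Mouse Genome arrays. The authors deposited spot intensity from Feature Extraction 11.5.1.1, corrected for background and for spatial trends, per the file headers. The deposited p-value of each spot against background was not used, and its call of well above background was. The series table they deposited holds a ratio, each intensity over its array's 75th percentile, and was tried as an alternative.

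Here, control and outlier spots were left out, log2 intensities of repeated spots were averaged into 39423 probes, the median SD of repeated spots being 0.057 to 0.066, and each array was scaled by its 75th percentile. A gene is its brightest probe. Fold changes are differences between 2 arrays, called past 2-fold. For bounds, the dim side took the array's lowest detected signal (10.7 to 17.1), or its own if higher. Names came from a RefSeq table of GRCm38.p6, and coordinates are those of the arrays on mm9. Python 3.11.15, pandas 2.3.3 and numpy 2.4.6 were used, with limma 3.58.1 in R 4.3.3 for normalization. Ratios were checked on simulated data.

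The members and lists were chosen with earlier results of these data known. Genes named besides the members were, of 4 transport lists, those past 4-fold in any comparison, up to the 12 with the largest difference between the AOM arrays, and the 2 brightest of each marker list. Brightest means the highest mean log2 signal over the 4 arrays. For *Slc26a3*, *Aqp8* and *Cftr*, the 3 genes with the nearest pattern were named. The 10 marker lists were pan-epithelial, surface colonocyte, goblet cell, crypt stem and Wnt target, proliferation, smooth muscle, leukocyte, pancreatic acinar, small intestine and distal colon position. Of the last, 1 gene of 6 was not matched. The alternatives were other scalings, background correction, probe choice, treatment of dim signals and fold thresholds.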

Additional observations from a re-analysis of the deposited data

Results flagged for a closer look

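For 3 of the 10 transport genes, AOM went past 2-fold in opposite directions in the genotypes. The log2 ratio of AOM over vehicle was −6.16 in *Pla2g3*+/+ and 1.39 in *Pla2g3*-/- for *Slc26a3*, −1.87 and 1.36 for *Scnn1a*, and −2.80 and 1.33 for *Atp12a*. Each genotype is 1 array per treatment, and the difference between the genotypes was not tested. The summed signal of the smooth muscle genes on the same arrays was 29.1 in *Pla2g3*+/+ and 477 in *Pla2g3*-/- after AOM, and the part of tissue content in these ratios was not tested.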

How the results depend on the processing

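Of 12 alternatives, 10 gave ratios, and none of these turned the direction of a member's ratio past 2-fold. The others were the thresholds of 1.5-fold and 4-fold, which give no new ratio. The deposited table, among the 10, holds the same scaling and could not differ. After AOM over vehicle in *Pla2g3*+/+, the number of members over 2-fold higher rose from 0 to 1 without scaling, with quantile normalization, with normexp background correction followed by quantile normalization, with pan-epithelial scaling and at 1.5-fold, and the gene was *Slc9a3* each time. In *Pla2g3*-/-, the number over 2-fold lower rose from 0 to 2 with pan-epithelial scaling, to 1 with the dimmest probe of a gene and to 2 at 1.5-fold. At 4-fold, the number lower between the AOM arrays fell from 1 to 0, and the number higher after AOM in *Pla2g3*-/- from 4 to 0. The median log2 ratio of all genes between the AOM arrays moved from 0.03 to −1.19 with pan-epithelial scaling, and that of AOM over vehicle in *Pla2g3*+/+ from −0.17 to 0.87 without scaling, to 0.73 with pan-epithelial scaling and to −0.01 with quantile normalization. Between the AOM arrays, *Slc26a3* ran from 6.38 to 8.22 and *Scnn1b* from 1.04 to 2.29 over 10 alternatives. *Scnn1a* and *Cftr* were at −1.87 and −1.77 for AOM over vehicle in *Pla2g3*+/+. They fell within 2-fold without scaling (−0.85 and −0.75) and with pan-epithelial scaling (−0.98 and −0.89). In the other 8 of 10 they stayed past 2-fold. Of these, the choice of probe, the treatment of dim signals and the deposited table could not move a gene with 1 detected probe. *Scnn1g*, near background, reached 2.90 between the AOM arrays when dim signals were used as they stand. No paired analysis was possible because each group is 1 array, and no array could be left out for the same reason.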
